A study of Mus musculus with 36 samples.

Results

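Regions of open chromatin that hematopoietic stem cells (HSCs) of 10-week and of 20-month mice have in common were compared by the strength of their signal, not by whether a peak was found. Joining peaks of the 8 HSC libraries that shared 1 bp or more gave 52913 regions, of which 17361 (32.8%) had a peak in each of the 4 young and 4 aged libraries. Of the shared regions, 17316 were assigned to the nearest TSS of 10788 protein-coding genes. The value of a region in a library was the highest fold enrichment over local background among its peaks there, turned into a percentile among the 17361 regions of the same library, so that 0 is the weakest and 100 the strongest shared region and the overall level of a library drops out. A percentile thus describes a region relative to the others, and a rise of some regions is matched by a fall of others. All differences below are aged minus young, in percentile points, and errors are SDs over 4 libraries.

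ATAC-seq, a transposase-based assay of accessible chromatin, was run in 8 bone marrow fractions of both ages, 36 libraries in all. The HSCs came from C57BL/6 mice aged 10 weeks (young) or 20 months (aged), with no allele, transgene or treatment named for either group. Both groups were sorted with one gate, positive for Sca-1, c-kit and CD150 and negative for lineage markers, the IL-7 marker, CD34, CD48 and Flt3, and each library was made from 20000 cells. Per the study's methods the mice were female, the aged ones had been housed in 2 animal facilities, and the reads of every library were subsampled to one number. The study calls the 4 HSC libraries of an age biological replicates, and says elsewhere that marrow of an age was pooled and then sorted more than once. Libraries of 1 age may therefore share a pool, and the p-values below measure only the spread between these libraries, which may be technical. The labels name no batch. The deposited peak names of replicates 1 and 2 of both ages begin with a running number and those of replicates 3 and 4 do not, so that differences are also given for each of these sets.

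HSCs maintain all blood lineages, and with age their number grows while they regenerate blood less well and give relatively more myeloid and platelet cells. Open chromatin marks promoters, where transcription starts, and distal elements such as enhancers, which lie in introns or between genes and act on promoters at a distance. Promoters of widely used genes are open in most blood cells, whereas many distal elements are open in 1 or a few cell types. The height of an ATAC peak reflects how often the site is cut in the cell population, so that fewer cells with an open site and less cutting per cell cannot be told apart in these libraries.

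A total of 8 regions passed the test across all shared regions, none of them at a promoter. The 201 bases centred on the median summit of the 5 that can be printed are shown as examples of these distal sites. The firmest one, nearest to Cdh2, and those nearest to Mocos and Tpgs2 are not printed, so that the choice does not follow the size or the p-value of the difference. They were read from the plus strand of the RefSeq genome GRCm38.p6 (mm10), 5′ to 3′, and capitals mark matches to any of the 22 consensus motifs searched on both strands.
Tprg, higher in aged HSCs, chr16:25220664-25220864: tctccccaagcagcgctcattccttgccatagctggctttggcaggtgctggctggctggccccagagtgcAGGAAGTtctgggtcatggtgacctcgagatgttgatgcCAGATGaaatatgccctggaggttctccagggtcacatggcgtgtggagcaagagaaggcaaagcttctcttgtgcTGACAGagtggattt
Npas3, higher in aged HSCs, chr12:53485076-53485276: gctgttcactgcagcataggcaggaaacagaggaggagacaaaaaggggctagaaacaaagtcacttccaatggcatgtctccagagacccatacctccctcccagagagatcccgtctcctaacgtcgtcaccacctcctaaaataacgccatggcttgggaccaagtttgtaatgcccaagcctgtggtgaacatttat
Cntnap5a, higher in aged HSCs, chr1:114039481-114039681: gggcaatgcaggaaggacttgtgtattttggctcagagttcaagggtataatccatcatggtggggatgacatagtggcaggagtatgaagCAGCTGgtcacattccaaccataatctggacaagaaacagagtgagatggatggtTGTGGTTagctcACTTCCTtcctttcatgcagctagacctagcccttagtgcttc
Cep162, higher in aged HSCs, chr9:87210944-87211144: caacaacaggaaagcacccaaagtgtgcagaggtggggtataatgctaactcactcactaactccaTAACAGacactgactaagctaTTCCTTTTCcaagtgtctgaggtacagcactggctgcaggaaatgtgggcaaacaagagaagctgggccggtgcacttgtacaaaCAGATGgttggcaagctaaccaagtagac
Ifnar2, lower in aged HSCs, chr16:91355287-91355487: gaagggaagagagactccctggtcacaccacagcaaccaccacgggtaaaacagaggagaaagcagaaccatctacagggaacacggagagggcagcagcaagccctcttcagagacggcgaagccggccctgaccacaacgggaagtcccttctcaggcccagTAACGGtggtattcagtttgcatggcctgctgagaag
The Tprg site holds 3 matches, an ETS motif (ACTTCCT, found here as its complement), an E-box (CAGATG) and a MEIS motif (TGACAG). The Cntnap5a site holds 3 as well, an E-box (CAGCTG), a RUNX motif (TGTGGTT) and an ETS motif. The Cep162 site holds an IRF motif (GAAANNGAA, as its complement), a MYB motif (CNGTTA, as its complement) and the CAGATG E-box, and the Ifnar2 site holds 1 MYB motif. No match to the 22 motifs lay in the Npas3 window. Of all shared regions on placed chromosomes, 15.1% held the ETS motif within 100 bp of the summit, 8.74% the RUNX motif, 6.36% the IRF motif, 15.7% the MYB motif, 12.8% the MEIS motif, 13.1% the CAGCTG E-box and 10.3% the CAGATG E-box. For these 5 sites a match is a description of the letters and not a bound site.

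The 8 libraries held 27856 to 38756 peaks, and the median fold enrichment at the shared regions was 9.76 to 11.8. The libraries resembled each other closely. The correlation of the scores of 2 libraries across regions, a description over regions that are not independent, was 0.689 to 0.832, with a mean of 0.772 ± 0.0366 over the 12 pairs of one age and 0.75 ± 0.0343 over the 16 pairs of different age (two-sided exact permutation test of the difference over the 70 labellings of the libraries, p = 0.143). The test does not take the 2 sets of replicates into account, and the set moved with the correlation as well. Its mean was 0.804 for pairs of one age and set and 0.756 for one age and different sets, and 0.761 for different ages in one set and 0.738 for different ages and sets. Among HSC markers, the promoters of Hlf, Meis1 and Kit were called in all 8 libraries and those of Mecom and Slamf1 in none, while Procr had a promoter peak in 4 young libraries and Ly6a in 1, and neither had one in an aged library. No promoter of the 9 granulocyte and monocyte markers or the 5 T cell markers was called in any library. Of the B cell markers only Ebf1 was called. The promoters of all 5 megakaryocyte markers (Itga2b, Itgb3, Gp1ba, Gp9 and Pf4) were called in at least 3 libraries of each age, and the 5 shared regions nearest to them averaged a percentile of 42.5 to 55.5 in young and 40.6 to 48.9 in aged libraries. The 4 shared regions nearest to granulocyte and monocyte markers averaged 56.8 to 69.3 in young and 36.3 to 61.6 in aged libraries, so that the ages overlapped. The 17 regions nearest to HSC markers averaged 50.2 to 60.4 in young and 49.8 to 52.2 in aged libraries, and the 3 nearest to erythroid markers 47.1 to 57.6 and 42.5 to 50.2. The part of cells other than HSCs in the results below was not tested.

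Most shared regions showed no change of rank beyond the spread between libraries, which does not show that they are unchanged. The difference between the ages had a median of 0.104 points, its quartiles were -6.71 and 6.84 points, and 65% of regions moved by less than 10 points, where the median SD between libraries of one age was 12.6 points. A move of over 30 points was seen at 395 regions, and the extremes were -53.7 and 63.9 points. With a limma fit to normal scores of the ranks over all 17361 regions, 7 regions were higher in aged HSCs (0.0403%) and 1 was lower (0.00576%) at a Benjamini-Hochberg adjusted p under 0.05, against 795 higher and 808 lower at an unadjusted p under 0.05. These counts depend on the processing, with 11 higher and 7 lower when the set of replicates was a block, 18 and 5 with the rank of −log10 p, 1 and 0 with ranks among all peaks of a library and 0 and 0 with percentiles in place of normal scores. The 4 aged libraries all lay above the 4 young ones at 439 regions (2.53%) and all below them at 391 (2.25%). The called region with the largest adjusted p reached 0.0471 (Cep162) and the first one outside 0.0914 (Lrp2). The differences of the same region in replicates 1 and 2 and in replicates 3 and 4 were weakly related (Pearson r = 0.14, Spearman rho = 0.115, across regions, which share libraries). The 8 called regions have the same sign in both sets in the plot of the 2 sets, which follows from their selection on all 8 libraries. The number of higher regions was sensitive to single libraries. It was 6 without young replicate 2, 3 without aged replicate 2, 2 without young replicate 1 or without young replicate 3, and 1 without any one of young replicate 4 and aged replicates 1, 3 and 4. The 1 lower region was called only when no library or young replicate 3 was left out.

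**Figure D1:**
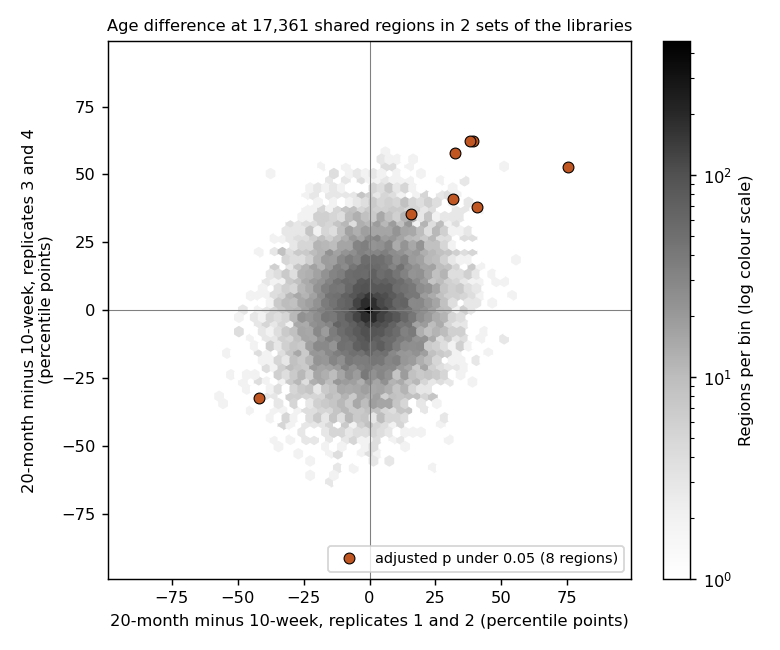
Difference between the ages at the 17361 shared regions, in replicates 1 and 2 (horizontal axis) and in replicates 3 and 4 (vertical axis), both in percentile points, with the number of regions per bin on a log colour scale. The 8 regions past the limma threshold are drawn as orange points, 7 of them in the upper right and 1, nearest to Ifnar2, in the lower left.

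The firmest difference was at an intergenic region of 440 bp, chr18:16273576-16274015, 396 kb downstream of the TSS (transcription start site) of Cdh2, which encodes N-cadherin, an adhesion molecule discussed for the stem cell niche. Its percentile was 66.2, 68.4, 49.2 and 63.9 in young replicates 1 to 4 and 99.2, 99, 98.4 and 96.3 in aged replicates 1 to 4. All aged libraries placed it among the strongest shared regions and no young library did. The difference was 36.3 points (limma adjusted p = 0.00207), 31.8 in replicates 1 and 2 and 40.8 in replicates 3 and 4. Its fold enrichment rose from 12.2 on average to 22.7, and the call held without any one library (adjusted p 0.00326 to 0.021). It was lost with percentiles in place of normal scores (limma adjusted p = 0.249) and with replicates 1 and 2 alone (0.0523) or replicates 3 and 4 alone (0.0647). In MPP1, the multipotent progenitors closest to HSCs, the percentile of this region was 67.7 and 41.3 in the young and 97.6 and 93.1 in the aged libraries, so that both aged ones lay above both young ones. It was called in 9 of the 28 progenitor libraries and in none of granulocyte-macrophage (GMP), megakaryocyte-erythrocyte (MEP) or common lymphoid progenitors (CLP).

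A pair of other intergenic regions was higher in aged HSCs. The first, chr16:25220510-25221002, lies 66.1 kb upstream of Tprg and holds the first sequence shown above. Its percentile was 47.2, 68.1, 43.7 and 65.5 in young replicates 1 to 4 and 98.5, 98.3, 93.2 and 91.8 in aged replicates 1 to 4. All aged values exceeded 90 and the young values were in the middle of the range. The difference was 39.3 points (limma adjusted p = 0.0346), 40.7 in replicates 1 and 2 and 37.9 in replicates 3 and 4. The second, chr1:114039451-114040066, lies in a stretch without protein-coding TSSs, 1645 kb upstream of Cntnap5a, a contactin-associated adhesion gene of neurons. Its percentile was 56, 64, 41.7 and 28.2 in young replicates 1 to 4 and 88.1, 96.9, 92.6 and 93.4 in aged replicates 1 to 4. The groups did not overlap, and the young libraries differed more among themselves than the aged. The difference was 45.3 points (limma adjusted p = 0.0422), 32.5 in replicates 1 and 2 and 58.1 in replicates 3 and 4. It was called in 4 progenitor libraries, all MPP1, where its percentile was 8.5 and 4.5 in young and 86.5 and 74.4 in aged mice.

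The other 4 higher regions were intronic. The region chr12:53484899-53485562 lies inside Npas3, a transcription factor gene of the nervous system, 232 kb from its TSS. Its percentile was 83.6, 78.5, 62.6 and 63.9 in young replicates 1 to 4 and 97.1, 96.2, 98.7 and 98.9 in aged replicates 1 to 4. It was already strong in young HSCs and among the strongest shared regions in all aged libraries. The difference was 25.6 points (limma adjusted p = 0.0346), 15.6 in replicates 1 and 2 and 35.6 in replicates 3 and 4. It was open in the fewest progenitors of the 8, with calls in 3 libraries, all MPP1. The region chr9:87210798-87211397 lies in an intron of Cep162, which encodes a centrosomal protein of the ciliary base. Its percentile was 12.7, 1.71, 32.4 and 30.03 in young replicates 1 to 4 and 74.7, 90.1, 86.2 and 81.4 in aged replicates 1 to 4. It rose from the weaker part of shared regions to the stronger part, the largest move of all 17361. The difference was 63.9 points (limma adjusted p = 0.0471), 75.2 in replicates 1 and 2 and 52.6 in replicates 3 and 4. Its fold enrichment was 7.27, 5.24, 8.43 and 8.02 in the young and 13.7, 16.3, 17.1 and 14.7 in the aged libraries.

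The last 2 higher regions lie near each other on chromosome 18. The region chr18:24629728-24630261 is in an intron of Elp2, a subunit gene of the elongator complex, and its nearest TSS is that of Mocos, a molybdenum cofactor sulfurase gene, 23.7 kb away. Its percentile was 31.8, 67.3, 33 and 36.2 in young replicates 1 to 4 and 97.5, 79.9, 96.2 and 97.2 in aged replicates 1 to 4. Young replicate 2 and aged replicate 2 lay far from the others of their age, toward each other, without overlap. The difference was 50.6 points (limma adjusted p = 0.0422), 39.1 in replicates 1 and 2 and 62.1 in replicates 3 and 4. The region chr18:24948071-24948613 is in an intron of Fhod3, which encodes an actin-organising formin, 220.4 kb from the TSS of Tpgs2. Its percentile was 55, 63.5, 26.5 and 24.3 in young replicates 1 to 4 and 97.2, 97, 91 and 84.3 in aged replicates 1 to 4. Replicates 3 and 4 of the young were lower than replicates 1 and 2, and the groups did not overlap. The difference was 50.1 points (limma adjusted p = 0.0441), 37.9 in replicates 1 and 2 and 62.3 in replicates 3 and 4.

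The 1 region that was lower in aged HSCs, chr16:91355211-91355562, lies between genes, 17.4 kb upstream of Ifnar2, which encodes a subunit of the type I interferon receptor and signals through JAK-STAT. Its percentile was 33.7, 52.6, 15.8 and 52.8 in young replicates 1 to 4 and 2.04, 0.893, 1.43 and 2.07 in aged replicates 1 to 4. In aged HSCs it was among the weakest shared regions in all 4 libraries, and it varied widely among the young. The difference was -37.1 points (limma adjusted p = 0.0422), -41.7 in replicates 1 and 2 and -32.6 in replicates 3 and 4. Its fold enrichment was 9.62, 12.1, 6.88 and 10.03 in young and 5.08, 4.41, 4.68 and 4.78 in aged libraries. It was called in 24 of 28 progenitor libraries. In MPP1 its percentile was 38 and 49.3 in young and 11.9 and 30.3 in aged libraries, and in MPP4, the lymphoid-primed progenitors, 65.3 and 69.2 against 69.5 and 72.5.

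**Figure D2:**
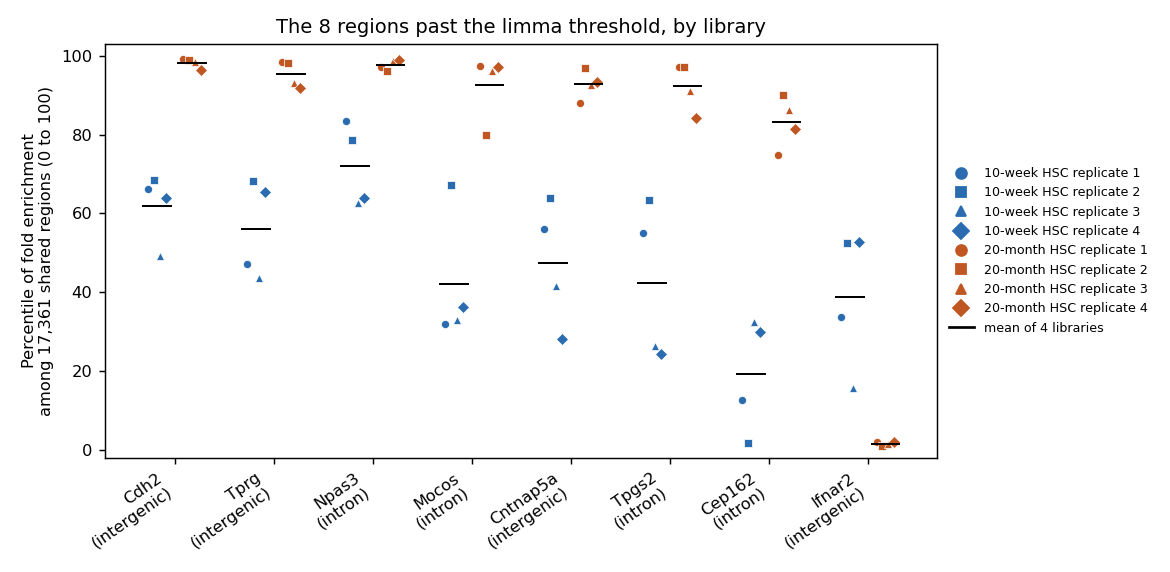
Percentile of fold enrichment among the 17361 shared regions (vertical axis, 0 to 100) of the 8 regions past the limma threshold, named by the gene with the nearest TSS, in each young (blue) and aged (orange) HSC library, with the mean of 4 libraries as a bar. The aged libraries lie above all young ones in the first 7 regions and below them near Ifnar2.

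Besides Cdh2, the called regions lay close to the threshold. Leaving out each of the 8 libraries in turn kept the call of the Npas3 region 3 times, of the Mocos region 2 times, of the Tprg, Cntnap5a, Tpgs2 and Ifnar2 regions 1 time each, and of the Cep162 region 0 times (adjusted p 0.062 to 0.177). Of the 8 regions, 5 were called in no GMP, MEP or CLP library (Cdh2, Npas3, Cntnap5a, Tpgs2 and Cep162), a property of 7.08% of all shared regions. Regions with this property also differed more widely between the ages. The SD of their difference was 15.2 points, beside 9.45 for regions called in all progenitor libraries and 12.7 for the rest. Whether called regions favour this class was not tested. In all 7 higher regions both aged MPP1 libraries also lay above both young ones, an uncalled library counting as lowest, against 16.1% of all shared regions. With 2 libraries per age no exact test of MPP1 alone can go below p = 0.333, and MPP1 libraries were not used in choosing these regions.

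By the same order the next regions were not called and are given as values. Among higher ones, an intronic region of Lrp2 (chr2:69574869-69575260), the gene of the endocytic receptor megalin, had 6.26, 3.07, 15.3 and 4.32 in young and 60.9, 72.5, 48.2 and 45.3 in aged libraries (adjusted p = 0.0914). An intergenic region 322 kb from Cox7c, a gene of respiratory complex IV, averaged 83.8 ± 11.1 and 98.8 ± 0.454, and an intronic region of Gemin2, a gene of snRNP assembly, 30.4 ± 27 and 87 ± 12.1 (n = 4 each, adjusted p = 0.116 and 0.117 in the limma fit). Absence of overlap was part of the rule by which these 3 and the lower regions were picked. In each of the 3, both aged MPP1 libraries were above both young ones. Together with the 7 called ones, 10 of 10 higher regions thus had this order in MPP1.

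Among lower ones there were regions that were strong in young HSCs. An intergenic region 27.1 kb upstream of Hlf (chr11:90417765-90418296), the gene of a transcription factor that is nearly restricted to HSCs among blood cells, had 98.5, 95.9, 97.1 and 98.9 in young and 85.1, 91.8, 73.5 and 80.3 in aged libraries (adjusted p = 0.117). The region itself was not restricted to HSCs and was called in 26 of the 28 progenitor libraries. In MPP1 its percentile was 98.3 and 84.5 in young and 94.4 and 82.2 in aged libraries. Regions nearest to the cAMP phosphodiesterase genes Pde4d and Pde3b are given next. The first (chr13:108646922-108647770) averaged 91.8 ± 1.72 in young and 59.6 ± 6.31 in aged HSCs, and the second (chr7:114479843-114480136, intronic) 96.5 ± 0.294 and 75.1 ± 13.3 (n = 4 each, adjusted p = 0.115 and 0.139 in the limma fit). A region 98.8 kb upstream of Pik3r1, the gene of the regulatory subunit of PI3 kinase, averaged 82 ± 11.6 and 32.7 ± 6.5 (n = 4 each, limma adjusted p = 0.117). The remaining 5 lay nearest to Mc2r, Sec22b, Ifitm10, Mthfd1l and Raet1e, with differences of -53.7 to -16.8 points and adjusted p from 0.112 to 0.141 in the limma fit. Both aged MPP1 libraries were below both young ones in 4 of the 10 lower regions (Ifnar2, Mc2r, Pik3r1 and Mthfd1l), against 16% of all shared regions. Whether the higher and the lower regions differ in this was not tested.

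The 439 and 391 regions without overlap between the ages in HSCs were followed in the progenitors, where each region was ranked among the shared regions called in that library. In MPP1, 406 of the 439 were called in all 4 libraries and had a median difference of 3.28 points, 386 of the 391 had -2.26 points, and all 16725 such shared regions -0.0535 points. Both aged MPP1 libraries lay above both young ones at 26% of the higher regions and below them at 13.4%, and below them at 23.5% of the lower regions and above them at 9.72%, beside 16.1% above and 16% below over all shared regions. The medians of the higher regions in the other fractions were -0.371 points in MPP2, 0.814 in MPP3 and 1.54 in MPP4, against -0.359, -0.559 and -0.0163 over all shared regions there. Those of the lower regions were -1.93, -1.97 and -1.55. In the oligopotent fractions the higher regions had medians of 0.758 (GMP), 0.192 (MEP) and 0.838 points (CLP), against 0.944, 0.797 and -0.553 over all shared regions. The lower regions had medians of 1.21 (GMP), 1.98 (MEP) and -1.08 points (CLP), above those of all shared regions in GMPs and MEPs. Each median covers only the regions called in all 4 libraries of its fraction. From MPP2 to MPP4 these were 322 to 352 of the higher and 329 to 357 of the lower regions. The counts were 290 higher and 315 lower (GMP), 118 and 100 (MEP), and 269 and 271 (CLP). The MEP medians thus leave out most of the 439 and 391 regions, and that of all shared regions there covers 5543 of 17361. The difference between the fractions was not tested.

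By place in the genome, 6981 shared regions were promoters (40.2%), 4446 lay in introns (25.6%) and 4579 between genes (26.4%). The mean percentile of promoters was 51, 51.2, 54 and 52.1 in young replicates 1 to 4 and 52.1, 51.7, 53.1 and 53.3 in aged ones. That of introns was 48.3, 47.6, 46.9 and 48.1 against 47.7, 47.6, 46.6 and 46.4, and that of intergenic regions 52, 52.2, 48.4 and 50.2 against 50.9, 51.2, 50.2 and 49.9. The ages overlapped in each. The differences were 0.473 points for promoters (p = 0.571), -0.605 for introns (p = 0.229) and -0.15 for intergenic regions (p = 0.886), in two-sided exact permutation tests over 70 labellings whose smallest possible p is 0.0286 (adjusted over the 3 places, 0.857, 0.686 and 0.886). Leaving out 1 library moved the promoter difference to between 0.111 (without young replicate 1) and 1.11 points (without young replicate 3), and the intergenic one to between -0.91 (without young replicate 3) and 0.348 (without young replicate 2). The sign also depended on the ranked value. Promoters were lower in aged HSCs with the rank of −log10 p or with ranks among all peaks. Intergenic regions were higher with the rank of −log10 p. Single regions varied more in distal places. The SD of the difference was 10.3 points over promoters, 13.1 over introns and 13.7 over intergenic regions. Regions without overlap were 2.15% higher and 1.78% lower of promoters, 2.52% and 2.38% of introns, and 3.25% and 2.88% of intergenic regions.

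Breadth of calling in the progenitors divided the shared regions more than place did, in both ages. Breadth also depends on the peak lists, as the MEP libraries held 9581 to 11041 peaks and the other progenitor libraries 27087 to 63288. A region called in all 28 libraries had to be in the short MEP lists, and the part of peak number in the percentiles below was not tested. The 5328 regions called in all 28 progenitor libraries had a mean percentile of 62.7 ± 1.65 in young and 63.2 ± 1.06 in aged HSCs (n = 4 each), above the 10804 regions of intermediate breadth with 44.6 ± 0.49 and 44 ± 0.406. The 1229 regions called in no GMP, MEP or CLP library, which are HSC and MPP regions, had 46.5, 44.8, 39.5 and 41.2 in young and 47.2, 45.8, 45 and 43.8 in aged replicates 1 to 4. They were the class with the largest difference, 2.46 points, but young replicates 1 and 2 overlapped the aged libraries, and the difference was 0.841 points in replicates 1 and 2 and 4.07 in replicates 3 and 4 (two-sided exact permutation test, p = 0.257). The other classes differed by 0.488 (p = 0.629) and -0.52 points (p = 0.143, exact permutation tests). Leaving out 1 library moved the difference of the HSC and MPP regions to between 1.28 points (without young replicate 3) and 3.64 (without young replicate 1), and that of the regions open in all progenitors to between 0.0734 (without young replicate 1) and 1.24 (without young replicate 3). After adjustment over the 3 classes the p-values were 0.629, 0.386 and 0.386. Of these HSC and MPP regions, 4.88% were higher in aged HSCs without overlap and 2.03% lower, beside 2.16% and 1.75% of the regions open in all progenitors, 2.44% and 2.53% of the intermediate ones, and 2.53% and 2.25% of all shared regions. By distance to the nearest TSS the differences were 0.507 points up to 1 kb, -0.255 from there to 10 kb, -1.1 to 50 kb and 0.0626 beyond (exact permutation p 0.171 to 1).

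**Figure D3:**
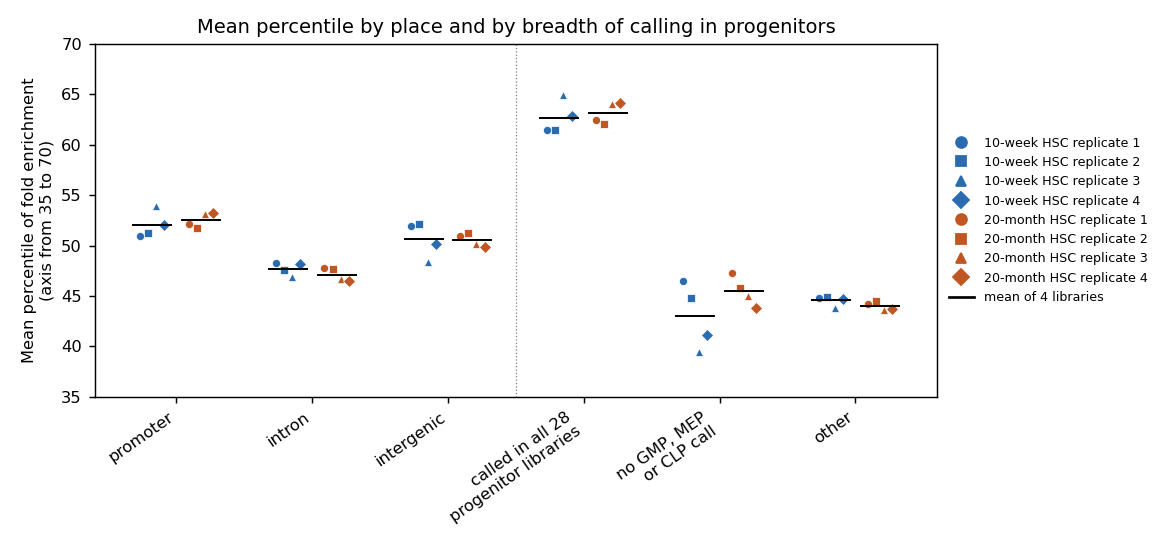
Mean percentile of fold enrichment (vertical axis, from 35 to 70) of the shared regions by place (left of the dotted line) and by breadth of calling in the 28 progenitor libraries (right), in each young (blue) and aged (orange) HSC library, with the mean of 4 libraries as a bar. Regions called in all 28 progenitor libraries lie above the other classes in all 8 libraries, and the ages overlap in every class.

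By chromosome, a comparison chosen after the values had been seen, chromosome 11 stood apart. The mean percentile of its 809 shared regions was 52.5, 54.5, 53.8 and 52.8 in young and 49.8, 50.3, 50.7 and 50.3 in aged replicates 1 to 4, the highest mean of the 20 chromosomes in young HSCs and not in aged ones. All aged libraries lay below all young ones, by -3.15 points on average, with -3.43 in replicates 1 and 2 and -2.86 in replicates 3 and 4. The p-value was 0.0286, the smallest that the two-sided exact permutation test can give, and 0.286 after adjustment over 20 chromosomes, which does not pass. Chromosome 9 also showed no overlap, with 50.7 ± 0.534 in young and 49.2 ± 0.352 in aged HSCs (n = 4 each, difference -1.48 points, exact p = 0.0286, adjusted 0.286). The other 18 chromosomes differed by -1.24 to 1.43 points and overlapped between the ages.

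**Figure D4:**
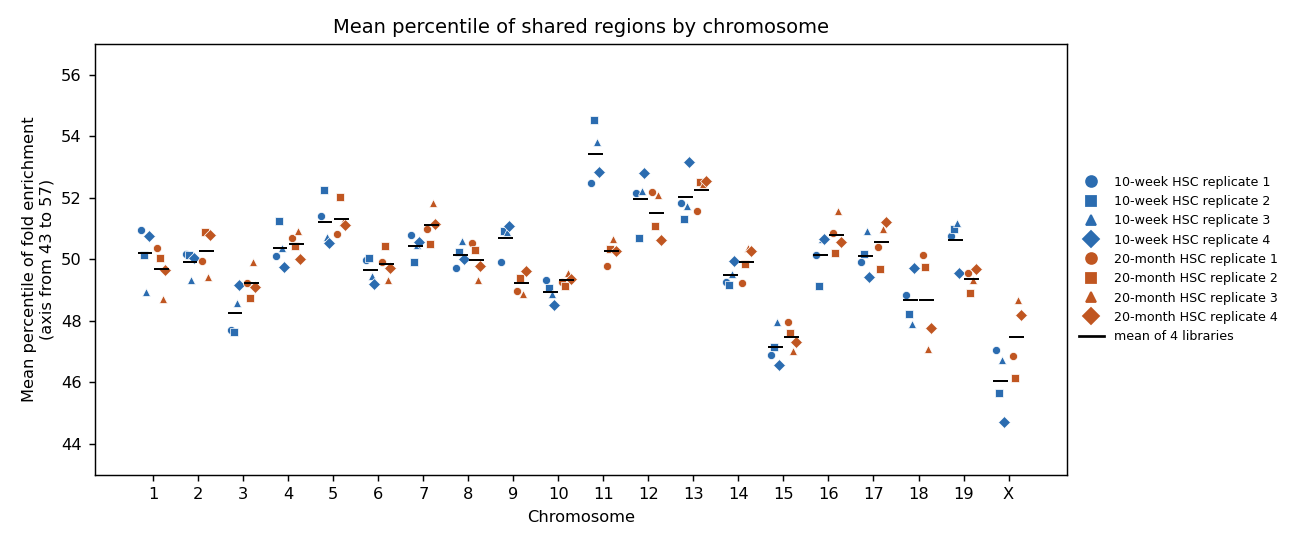
Mean percentile of fold enrichment (vertical axis, from 43 to 57) of the shared regions of each chromosome in each young (blue) and aged (orange) HSC library, with the mean of 4 libraries as a bar. The aged libraries lie below the young ones on chromosome 11 and, by less, on chromosome 9.

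Of the 13 windows of 10 Mb of chromosome 11, 11 had a lower mean in aged HSCs, but the ages overlapped in all except 2 of the 13. The differences of the lower windows ran from -0.277 to -8.6 points, with the largest decreases between 50 and 60 Mb (79 regions), between 90 and 100 Mb (-5.62 points, 75 regions) and between 70 and 80 Mb (-5.42 points, 82 regions). The region upstream of Hlf lies in the second of these. The windows from 30 to 50 Mb were 0.653 and 0.838 points higher in aged HSCs. The difference was -2.71 points at the 399 promoters of the chromosome, -4.55 at its 185 intronic regions and -2.7 at its 182 intergenic regions. These values, the windows and the share of peaks describe the chromosome after it was chosen in the same libraries, and no test is given for them. Of its 809 regions 60.6% were lower in aged HSCs, beside 49.2% of all shared regions, and 26 (3.21%) were lower and 12 (1.48%) higher without overlap, beside 2.25% and 2.53% of all shared regions. The share of a library's peaks that lay on chromosome 11 was 5.47%, 5.52%, 5.51% and 5.78% in young and 4.96%, 4.89%, 4.6% and 4.45% in aged replicates 1 to 4 (difference -0.849 percentage points). In the progenitors this share was 5.62% ± 0.0623 in young and 5.33% ± 0.0788 in aged MPP1 (SD, n = 2 each), 6.58% and 6.53% in GMPs, 6.42% and 6.38% in MEPs, 5.71% and 5.69% in CLPs and 6.04% and 5.7% in MPP4, and it was higher in aged mice in MPP2 (5.6% and 5.73%) and MPP3 (6.34% and 6.45%). The mean percentile of chromosome 11 was 51.9 ± 1.77 in young and 51.1 ± 1.2 in aged MPP1 (SD, n = 2 each), 56.4 and 55.5 in GMPs, 49.8 and 49.3 in MEPs and 52.6 and 52 in CLPs, and higher in aged mice in MPP2 (52.3 and 53.4), MPP3 (55.84 and 56.0) and MPP4 (53.54 and 53.72). Whether HSCs differ from the progenitors in this was not tested.

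By gene, the scores of all shared regions nearest to a gene's TSS were averaged, over 1 region in 7227 genes and over 2 to 20 regions in 3561. No gene of 10788 passed the limma test (0%), against 486 higher and 425 lower at an unadjusted p under 0.05, and the smallest adjusted p was 0.11. The libraries did not overlap at 276 genes with higher (2.56%) and 244 genes with lower rank in aged HSCs (2.26%). The genes of smallest p were therefore not called and are given as values. Among those higher in aged HSCs, beside Lrp2 and Cntnap5a with the single regions above, Aggf1, an angiogenic factor gene, averaged 14.6 ± 5.85 in young and 56.4 ± 2.99 in aged HSCs, and the 2 regions of Cdh2 33.5 ± 2.52 and 54.7 ± 2.57 (n = 4 each, adjusted p = 0.216 for both in the limma fit). Clec4e, a pattern recognition receptor gene of myeloid cells, had 16.4 ± 8.67 and 53.2 ± 2.98, and the others were Lrfn5, Cnfn, Dgki, Rgs17 and Rxfp1, with adjusted p up to 0.302. Among those lower were Fcgr1, the high-affinity Fc receptor gene of myeloid cells, with 63.8 ± 15.2 and 16.9 ± 3.14, Gorasp1, a Golgi stacking gene, with 72.1 ± 7.3 and 27 ± 12.6, and Xab2, a splicing and DNA repair gene, with 33.9 ± 5.43 and 5.88 ± 4.44 (n = 4 each). Tamm41, Ranbp6, Tnni2, Lrrc19 and Spata46 had differences of -50.6 to -37.9 points, and Ifitm10 and Pde3b have the single regions above. The genes with the most shared regions were averages over many sites. Smad7, an inhibitor of TGF-beta signalling with the most shared regions (20), averaged 49.9 ± 1.97 in young and 45.9 ± 7.53 in aged HSCs, and Klf6 with 14 regions 46.7 ± 5.93 and 49.5 ± 2.09 (n = 4 each). The 11 regions of Pde4d averaged 71.6 ± 3.81 and 63.6 ± 3.95.

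Shared regions nearest to the genes of 11 lists were read against all shared regions, where the median difference was 0.104 points, 2.53% were higher and 2.25% lower without overlap, 795 higher and 808 lower of 17361 had an unadjusted p under 0.05, and 8 passed the limma test. Of the listed genes only Ifnar2 (JAK-STAT) and Cdh2 (niche and adhesion) had a called region. In the other 9 lists no region passed. Regions and genes named below other than the first promoters of each list were picked because their libraries did not overlap, after the values had been seen. Known markers of aged HSCs had 63 shared regions at 33 of 38 genes, with a median difference of -2.01 points and 3 higher and 2 lower without overlap (7 higher and 6 lower at an unadjusted p under 0.05). The promoter of Enpp5 averaged 61.7 ± 8.78 in young and 17.5 ± 19.7 in aged HSCs and that of Klhl4, on the X chromosome, 45 ± 20.8 in young and 82.3 ± 5.98 in aged HSCs (n = 4 each). The 2 differences have opposite signs. Distal regions nearest to Alcam, an adhesion gene, averaged 9.96 ± 9.34 in young and 31.5 ± 7.78 in aged HSCs, and nearest to Fyb, an adaptor gene of platelets and T cells, 98.4 ± 0.729 in young and 96.1 ± 0.742 in aged HSCs, and the 5' UTR of Runx1t1 3.76 ± 1.62 in young and 12.8 ± 8.85 in aged HSCs (n = 4 each). The promoters of Fhl1 (49.8 ± 14.7 and 38.8 ± 8.68), Cavin2 (69.3 ± 10.04 and 67.6 ± 11.7), the metallothionein gene Mt1 (45.5 ± 15.8 and 49.6 ± 20.4) and Ehd3 (61.9 ± 15.9 and 48.9 ± 28) overlapped.

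HSC transcription factors had 72 shared regions at 24 of 30 genes, with a median difference of -1.75 points and 2 higher and 2 lower without overlap (4 higher and 2 lower at an unadjusted p under 0.05). The promoters of Meis1 (24.1 ± 6.0 and 18.7 ± 12.7 in young and aged HSCs), Hlf (73 ± 22.8 and 69.1 ± 14.3) and Erg (42 ± 23.5 and 33.3 ± 20.1) overlapped between the ages, so that at Hlf the libraries separated by age at the distal region and not at the promoter. Whether the distal region of Hlf differs from its promoter was not tested. A region 36 kb downstream of Mycn, a proto-oncogene for self-renewal and growth, averaged 7.06 ± 7.53 in young and 31.6 ± 4.02 in aged HSCs, and one in Hhex 71.2 ± 7.29 in young and 85.6 ± 1.58 in aged HSCs (n = 4 each). The Pbx3 promoter was weak in both, 13.6 ± 10.7 in young and 3.63 ± 0.158 in aged HSCs. Megakaryocyte and platelet genes, which are raised in platelet-biased HSCs, had 31 shared regions at 18 of 27 genes, with a median difference of -1.56 points and 0 higher and 1 lower without overlap (0 higher and 3 lower at an unadjusted p under 0.05). The promoters of Gp1ba (91.9 ± 4.42 and 93.5 ± 8.44), Pf4 (68.1 ± 19.2 and 56.5 ± 28.4), Thbs1 (40.2 ± 13.7 and 59.8 ± 13.6) and P2ry1 (30.6 ± 15.4 and 19.9 ± 12.2) overlapped between the ages, and a region upstream of Rap1b, a small GTPase gene of platelets, averaged 69.8 ± 8.55 in young and 35.1 ± 16.9 in aged HSCs.

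In JAK-STAT signalling, which carries cytokine and interferon signals to the nucleus, there were 69 shared regions at 38 of 42 genes, with a median difference of -2.44 points and 1 higher and 1 lower without overlap (2 higher and 3 lower at an unadjusted p under 0.05). The promoters of Stat2 (92.6 ± 6.59 and 96 ± 3.18 in young and aged HSCs), Stat3 (74.4 ± 9.39 and 77.7 ± 7.59) and Stat5a (88.7 ± 7.08 and 89.2 ± 2.47) were strong in both ages and overlapped. The promoter of Pias4, which encodes an inhibitor of activated STATs, averaged 16.1 ± 5.88 in young and 48.4 ± 17.6 in aged HSCs without overlap. AP-1, ATF and immediate early genes, which respond within minutes to stress and growth signals, had 102 shared regions at 35 of 39 genes, with a median difference of 0.812 points and 1 higher and 2 lower without overlap (4 higher and 6 lower at an unadjusted p under 0.05). The Nr4a2 promoter averaged 91 ± 3.76 in young and 78.5 ± 2.81 in aged HSCs. At Klf6 one distal region averaged 14.3 ± 5.91 in young and 36.5 ± 6.4 in aged HSCs and another 73.6 ± 8.66 in young and 37.1 ± 31.9 in aged HSCs. The promoters of Jun (29.7 ± 19.8 and 20.4 ± 7.23), Junb (5.34 ± 7.98 and 4.97 ± 6.93), Jund (1.7 ± 0.944 and 2.15 ± 0.781) and Fos (6.4 ± 3.87 and 2.78 ± 2.55) were weak and overlapped. In the list of CNC factors and the oxidative stress response, whose regulators bind antioxidant response elements, there were 50 shared regions at 23 of 28 genes, with a median difference of -1.0 points and 1 higher and 2 lower without overlap (0 higher and 3 lower at an unadjusted p under 0.05). The promoters of Nfe2l1 (80.5 ± 10.3 and 89.6 ± 2.35), Bach1 (59 ± 11.5 and 56.7 ± 8.51), Bach2 (27.3 ± 17 and 37 ± 15.5) and Maff (20.8 ± 9.07 and 31.1 ± 23.7) overlapped, with higher aged means in all but Bach1. The promoter of Hmox1, the gene of heme oxygenase, averaged 41.5 ± 11.3 in young and 63.9 ± 8.04 in aged HSCs, that of Cat, the catalase gene, 68.6 ± 10.6 in young and 47.9 ± 9.11 in aged HSCs, and an intronic region nearest to Bach2 73.4 ± 3.17 in young and 45.1 ± 2.57 in aged HSCs (n = 4 each).

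Interferon and NF-kB response genes had 58 shared regions at 28 of 40 genes, with a median difference of -0.245 points and 0 higher and 3 lower without overlap (1 higher and 3 lower at an unadjusted p under 0.05). In an intron of Tlr2, a receptor for bacterial lipopeptides, a region averaged 56.5 ± 9.1 in young and 32.7 ± 7.2 in aged HSCs, a second one upstream of the gene 95.8 ± 1.91 in young and 92 ± 3.24 in aged HSCs, and one between genes nearest to Irf2 28.8 ± 21.1 in young and 4.24 ± 4.52 in aged HSCs (n = 4 each). The promoters of Irf1 (47.5 ± 28.6 and 49.9 ± 9.32), Irf2 (69.7 ± 3.55 and 68.2 ± 10.04), Irf9 (61.8 ± 6.26 and 65.4 ± 16.5) and Ifit1 (40.7 ± 14.1 and 22.6 ± 11.5) overlapped between the ages. Lymphoid priming genes had 70 shared regions at 19 of 32 genes, with a median difference of -2.86 points and 1 higher and 4 lower without overlap (1 higher and 7 lower at an unadjusted p under 0.05), the lowest median of the 11 lists. The promoters of Ebf1 (7.04 ± 3.84 and 16.4 ± 6.71 in young and aged HSCs), Ikzf1 (18.8 ± 12.9 and 14 ± 8.53), Ikzf2 (21.7 ± 3.96 and 19.8 ± 12.6) and Tcf3 (49.8 ± 16.8 and 64.4 ± 25.2), transcription factor genes of lymphocytes, overlapped between the ages, with higher means in aged HSCs for Ebf1 and Tcf3. In Flt3, a cytokine receptor gene of lymphoid-primed progenitors, an intronic region averaged 58.9 ± 7.36 in young and 28.1 ± 15.8 in aged HSCs. At Bcl11a, a transcription factor gene needed for B cells, regions 119.8 and 163 kb downstream of the TSS averaged 52.1 ± 22.6 in young and 16.8 ± 13.1 in aged HSCs and 88 ± 4.51 in young and 61.5 ± 17.6 in aged HSCs (n = 4 each), and these lie on chromosome 11. At Lef1 one region was lower (41.1 ± 12 in young and 23.8 ± 4.94 in aged HSCs) and another higher (20.5 ± 11 in young and 42.2 ± 6.4 in aged HSCs).

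Cell cycle and quiescence genes had 77 shared regions at 33 of 39 genes, with a median difference of -0.107 points and 0 higher and 2 lower without overlap (3 higher and 5 lower at an unadjusted p under 0.05). A region upstream of E2f3 averaged 69.2 ± 12.5 in young and 37 ± 8.9 in aged HSCs, and the weak promoter of Ccng2 11 ± 3.83 in young and 2.05 ± 0.749 in aged HSCs (n = 4 each). The promoters of the cell cycle inhibitor genes Cdkn1b (16.6 ± 11 and 17.5 ± 9.56) and Cdkn2d (51.3 ± 12.5 and 48.9 ± 9.63) and of the cyclin genes Ccnd3 (4.06 ± 5.24 and 15.6 ± 11.5 at one and 34.9 ± 21.7 and 34.9 ± 6.34 at another) and Ccne1 (76.5 ± 14.6 and 82.2 ± 3.47) overlapped. Chromatin modifiers had 72 shared regions at 37 of 46 genes, with a median difference of 0.138 points and 1 higher and 0 lower without overlap (1 higher and 1 lower at an unadjusted p under 0.05), and the promoters of Dnmt1 (45.3 ± 13.9 and 49.9 ± 12.3), Tet2 (12.3 ± 6.32 and 16.8 ± 9.0), Tet3 (40.5 ± 17.7 and 29.7 ± 8.18 at one and 18.6 ± 9.12 and 16.6 ± 16.5 at another) and Ezh2 (45.8 ± 8.84 and 55.1 ± 20.6) overlapped between the ages. A distal region nearest to Ezh2 averaged 8.32 ± 4.69 in young and 21.9 ± 4.42 in aged HSCs. Niche homing and adhesion genes had 61 shared regions at 21 of 30 genes, with a median difference of -0.616 points and 1 higher and 1 lower without overlap (1 higher and 2 lower at an unadjusted p under 0.05). Beside Cdh2, an intronic region nearest to Cd47, a signal against phagocytosis, averaged 50.8 ± 5.36 in young and 40.4 ± 4.82 in aged HSCs. The promoters of Cxcr4 (10.1 ± 10.5 and 17.6 ± 9.0), Kit (19.7 ± 12.4 and 9.15 ± 4.79), Itga4 (8.4 ± 6.4 and 4.53 ± 4.57) and Itga6 (34.9 ± 17 and 21.1 ± 11.3) were weak to moderate in both ages and overlapped.

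The 22 motifs were compared by the mean percentile of the regions that hold a motif within 100 bp of the summit minus that of the regions that do not. None passed the test of the ages after adjustment over the 22, and 3 reached the smallest unadjusted p of 0.0286 without overlap between the libraries (two-sided exact permutation tests, each adjusted p = 0.21). For the IRF motif of interferon regulatory factors (1101 regions) the value was -1.42, -1.75, -1.48 and -1.57 in young and -1.02, -1.17, 0.574 and 0.349 in aged replicates 1 to 4, a difference of 1.24 points. For the C/EBP motif of myeloid factors (TTGCNNAA, 6.92% of regions) it was 1.02, 1.12, -0.214 and 0.335 and 1.55, 1.62, 2.69 and 1.31, a difference of 1.23 points. For the NF-kB motif (GGGANTTTC, 137 regions, 0.791%) it was 0.475, 0.573, 1.45 and 2.05 and 0.23, -0.847, -3.75 and -3.17, a difference of -3.02 points. In all 3 the difference was larger in replicates 3 and 4 (1.99, 1.94 and -5.21 points) than in replicates 1 and 2 (0.484, 0.517 and -0.832).

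The AP-1 motif (TGANTCA, 9.54% of regions), bound by stress-responsive FOS and JUN factors and contained in the longer CNC motif (GCTGANTCA), varied most between libraries. Its value was 7.47, 7.26, -1.49 and 6.85 in young and 8.94, 7.32, -1.91 and -3.17 in aged replicates 1 to 4. Young replicate 3 and aged replicates 3 and 4 lay below 0 and the other 5 libraries near or above 7, so that the ages overlapped (difference -2.23 points, exact permutation p = 0.714). The CNC motif followed the same libraries, with 2.67, 1.77, -3.99 and 2.3 and 4.26, 4.08, -2.42 and -2.58. For STAT (TTCNNNGAA, 4.82%) the values were 1.99, 0.485, -0.0306 and 0.645 and 1.61, 2.16, 0.992 and 2.32 (difference 0.997 points, exact permutation p = 0.114), and for the ATF or cAMP response element (TGACGTCA, 2.06%) the difference was 0.108 points (p = 0.857, exact). PU.1 (GAGGAAGT), whose letters include an ETS match, was -1.86 points (p = 0.0571), the GATA factor motif, which is AGATAA, -1.79 (p = 0.143), ETS -1.63 (p = 0.171) and RUNX -0.724 points (p = 0.457) in the same exact tests, all lower in aged HSCs and none past the threshold. The other motifs were MYB (CNGTTA), HOX (TGATTTA), MEIS (TGACAG), both E-boxes, FOX (TGTTTAC), CTCF (CNAGGGGGC), KLF/SP (CCCCGCCC), NRF1 (GCGCATGCG) and YY1 (AAGATGGCG), with differences of -1.7 to 1.2 points and exact permutation p from 0.0857 to 0.971. The motif with the strongest regions in both ages was NFY (CCAATCA) of promoters, with 12.3 ± 1.23 in young and 12.6 ± 1.74 in aged HSCs (n = 4 each).

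**Figure D5:**
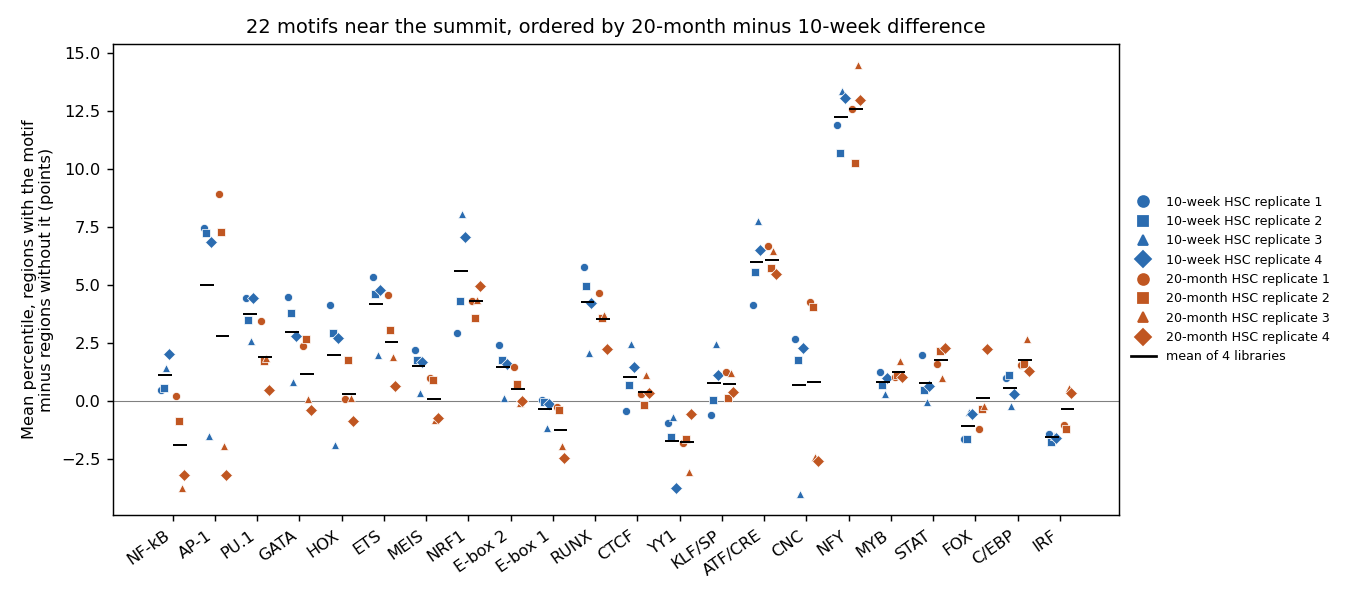
Mean percentile of the regions with a motif near the summit minus that of the regions without it (vertical axis, points), for 22 motifs ordered by the difference between the ages, in each young (blue) and aged (orange) HSC library, with the mean of 4 libraries as a bar. E-box 1 is CAGCTG and E-box 2 is CAGATG. The AP-1 and CNC values split by library more than by age, and NF-kB, C/EBP and IRF show no overlap between the ages.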

How the data were processed

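ATAC-seq peaks of 8 HSC libraries (4 per age) were analysed, and 28 progenitor libraries served for breadth and comparison. The authors aligned reads to mm10 with Bowtie2, filtered them with SAMtools and called peaks per library with MACS2 2.2.6 at a q-value limit of 0.001. The deposited peak lists give a fold enrichment (a ratio to local background), −log10 p and q-values, an integer score and the summit position. They hold no read counts, so the depth per library and counting intervals are not given here, and per the study's methods reads were subsampled to one number before calling.

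Peaks overlapping by 1 bp or more were merged. The highest fold enrichment per region and library was ranked among the regions called in all 8 libraries, and normal scores of the ranks were fitted with limma 3.58.1 in R 4.3.3 (moderated statistics, Benjamini-Hochberg adjustment over all regions). Regions lacking a peak in 1 or more of these libraries were left out. Gene values were means of scores over the regions nearest to a gene's TSS. Means over places, classes, chromosomes and motifs were compared with two-sided exact permutation tests over the 70 labellings. Promoters spanned 1000 bp upstream to 100 bp downstream of a coding TSS (GENCODE M21 basic), then exons, introns and intergenic sequence. Motifs were searched within 100 bp of the median summit. Named regions and genes were the 10 per direction with the smallest adjusted p and no overlap between the ages, with the same sign in both sets of replicates for regions. Listed genes were named when called, otherwise the first promoters of a list, and further ones are said to be chosen after their values were seen. Members, lists and markers were chosen with earlier results of these data known. Alternatives covered the ranked value, rank universe, peak threshold, overlap, blocks, GC content, promoter window, motif window and each left-out library. Some markers and listed genes are not reported here. Scripts were tested on simulated data. Python packages were pandas 2.3.3, scipy 1.17.1, statsmodels 0.14.6, pysam 0.24.0 and matplotlib 3.10.9.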

Additional observations from a re-analysis of the deposited data

Results flagged for a closer look

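Of 62 groups of 4 libraries examined, 4 held a library that stood far from the other 3, where chance flags about 1 in 20 groups. For the AP-1 motif, young replicate 3 had a value of -1.49 points while the other young libraries had 6.85 to 7.47. At the called region nearest to Mocos, young replicate 2 had a percentile of 67.3 beside 31.8 to 36.2 in the other young libraries, and aged replicate 2 had 79.9 beside 96.2 to 97.5 in the other aged ones. At the uncalled region nearest to Mc2r, aged replicate 2 had a percentile of 59.8 beside 87.1 to 91.7.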

How the results depend on the processing

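With other processing, the 7 higher and 1 lower regions became 0 and 0 with percentiles in place of normal scores, 18 and 5 with the rank of −log10 p, 1 and 0 with ranks among all peaks of a library, 1 and 0 with at least 50% of the region covered by a peak (where 5 of the 7, Tprg, Npas3, Mocos, Tpgs2 and Cep162, have no value), 11 and 7 with the set of replicates as a block, 0 and 0 with replicates 1 and 2 alone, and 3 and 1 with replicates 3 and 4 alone, of which 2 are among the 8. With peaks of −log10 q of at least 10 the counts were 5 and 0, and Ifnar2, Tpgs2 and Cep162 have no value. Leaving out 1 library gave 1 to 6 higher and 0 to 1 lower. All 8 regions were among those called with quantile-normalised fold enrichment (8), the rank of −log10 p (23) and the set block (18), and 7 were the 7 called after correction for GC content. The lists with stricter peaks or required coverage hold fewer regions, and the cause of the other changes was not tested. Genes with higher rank numbered 1 with the rank of −log10 p and 3 with the stricter peaks, and 0 otherwise.

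Promoters were lower in aged HSCs by -0.257 points with the rank of −log10 p and by -0.769 with ranks among all peaks. Intergenic regions were higher by 0.585 points with the rank of −log10 p and by 0.709 with replicates 3 and 4 alone, and ranged from -0.910 to 0.348 when a library was left out. They were higher without young replicate 1 (0.279), young replicate 2 (0.348) or aged replicate 4 (0.0784). Regions open in all progenitors were lower by -0.669 points (−log10 p) and -0.461 (all peaks). AP-1 motif regions were 0.763 points higher with replicates 1 and 2 alone. None of these values passed a test.

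Chromosome 11, for which all alternatives were added after seeing the data, as for the 4 named motifs, kept its sign throughout. Its difference was -3.64 points with ranks among all peaks (exact permutation p = 0.0857), -3.15 with the set block (p = 0.0556), and -3.43 and -2.86 in replicates 1 and 2 or 3 and 4 alone (p = 0.333), where the last 3 designs cannot go below these p-values.

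The labels do not say whether the replicate numbers pair the samples, and this was not tested. The correlations of the deviations of same-numbered libraries from their age means were 0.0764, 0.0951, 0.175 and -0.0806. Those of differently numbered libraries of different age ran from -0.191 to 0.191. With the replicate block 6 regions were higher and 0 lower, also with GC correction, and chromosome 11 had -3.15 points, or -3.06 with GC correction (exact permutation p = 0.125, the smallest possible). Precision is limited by 4 libraries per age, unknown read depth and marrow that may be 1 pool per age. Regions uncalled in some library, where the signal was weakest, are outside these comparisons.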

Other observations

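Exonic regions, which are few, overlapped between the ages as the larger classes did. The 626 shared regions in 5' UTRs had a mean percentile of 45.8 ± 0.93 in young and 46 ± 0.744 in aged HSCs, the 554 in coding exons 43.8 ± 0.866 and 43.6 ± 1.16, and the 130 in 3' UTRs 49.2 ± 1.93 and 49.7 ± 1.41 (SD, n = 4 each, two-sided exact permutation p = 0.629, 0.743 and 0.686).

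By GC content, the fifth of shared regions with the least GC differed by 1.3 points and the next ones by -0.565, -0.691, 0.108 and -0.15 points, with exact permutation p-values of 0.20, 0.543, 0.0857, 0.943 and 0.857. On chromosome 9, 9 of 13 windows of 10 Mb had a lower mean in aged HSCs, against 11 of 13 on chromosome 11. The ages did not overlap in 3 of the chromosome 9 windows. These lay between 20 and 30 Mb (2.71 points higher in aged HSCs, 106 regions), between 40 and 50 Mb (-4.18 points, 59 regions) and between 110 and 120 Mb. The largest decrease, -6.54 points, lay between 110 and 120 Mb (60 regions). In the window of the Cep162 region, between 80 and 90 Mb, the mean differed by 1.36 points over 62 regions.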
